A study of Mus musculus with 6 samples.

Results

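High-density lipoprotein (HDL) genes were examined in mouse liver as a set of 10: Abca1, Apoa1, Apoa2, Apom, Apof, Pon1, Lcat, Pltp, Lipc and Scarb1. They were taken by symbol from the 29981 gene rows of the deposited RNA sequencing table, and each had a row that named no other gene. The 3 HSKO samples came from C57BL/6 mice in which Abca1 was deleted in hepatocytes by a Cre recombinase under the Albumin promoter. The 3 WT samples, labelled wildtype, were floxed control mice of the same strain. Food was withheld from all mice between 9 am and 1 pm before the liver was taken. The labels name neither age nor sex, nor the exons removed. The deletion was aimed at hepatocytes, and the state of the gene in the other cells of the liver was not measured separately. No label ties a sample to a separate animal, and p-values therefore measure the spread between these samples, which may be technical.

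HDL formation begins when ABCA1 passes cholesterol and phospholipid from a cell to lipid-poor apolipoprotein A-I, and the liver is the main source of plasma HDL. The particle then matures: LCAT esterifies its cholesterol, PLTP moves phospholipid onto it, hepatic lipase (Lipc) trims its lipids, and the receptor SR-BI (Scarb1) takes up its cholesteryl ester. Apolipoprotein A-II is the second structural protein, while apolipoproteins M and F and the paraoxonase PON1 ride on the particle.

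In GENCODE M21 on mm10, Abca1 lies on chromosome 4 from 53030787 to 53159895 on the minus strand, Apoa1 on chromosome 9 from 46228580 to 46230466 on the plus strand and Apoa2 on chromosome 1 from 171225054 to 171226379 on the plus strand. Pon1 lies on chromosome 6 from 5168090 to 5193946 and Apom on chromosome 17 from 35128997 to 35132050, both on the minus strand. Apof is on chromosome 10, Lcat on 8, Pltp on 2, Lipc on 9 and Scarb1 on 5. The exons of Pltp share 495 bases with those of Ctsa on the opposite strand. The library kit keeps strand, but the labels do not name the strand setting of the counting, so the Pltp value is uncertain by any reads of Ctsa counted there.

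The sequences just before the transcription start are shown for 4 genes: the deleted gene, the HDL enzyme with the next largest fall, and the pair of structural apolipoproteins. They are from RefSeq on GRCm38.p6, on the strand of the gene, at chr4:53159896-53160145 for Abca1, chr6:5193947-5194196 for Pon1, chr9:46228380-46228579 for Apoa1 and chr1:171224804-171225053 for Apoa2. Capitals mark matches, on either strand, to 4 motifs. The first is a spaced nuclear receptor element of the kind the liver X receptor binds, 15 bases long: it opens with GGTNA, then takes any base at each position, and its final bases are GGTCA. The E-box was searched as CACGTG. For the TATA box the letters were TATAAA, and for the GC box they were GGGCGG.
Abca1: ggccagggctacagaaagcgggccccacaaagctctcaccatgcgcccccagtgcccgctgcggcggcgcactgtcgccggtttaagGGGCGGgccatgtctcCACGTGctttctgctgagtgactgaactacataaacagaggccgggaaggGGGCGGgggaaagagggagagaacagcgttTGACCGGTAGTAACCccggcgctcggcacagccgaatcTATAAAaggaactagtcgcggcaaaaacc
Pon1: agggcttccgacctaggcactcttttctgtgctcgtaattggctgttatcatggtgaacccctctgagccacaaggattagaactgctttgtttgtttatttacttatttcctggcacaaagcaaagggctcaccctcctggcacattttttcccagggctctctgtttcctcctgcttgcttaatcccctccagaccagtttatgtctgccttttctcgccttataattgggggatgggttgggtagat
Apoa1: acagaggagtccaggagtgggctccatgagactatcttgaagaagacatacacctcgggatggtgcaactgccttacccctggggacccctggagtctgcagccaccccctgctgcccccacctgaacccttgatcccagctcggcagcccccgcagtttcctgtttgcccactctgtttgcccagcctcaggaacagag
Apoa2: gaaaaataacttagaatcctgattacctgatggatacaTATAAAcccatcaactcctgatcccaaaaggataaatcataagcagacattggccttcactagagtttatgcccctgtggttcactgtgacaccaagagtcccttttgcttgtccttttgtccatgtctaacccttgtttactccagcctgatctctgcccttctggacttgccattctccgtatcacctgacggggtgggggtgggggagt

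Abca1 held the spaced element 67 to 53 bases before its start on the minus strand, an E-box 147 to 142 bases before it, a TATA box 29 to 24 bases before it and 2 GC boxes. No matches overlapped. The element was present in 0.177% of the 32851 windows of 250 bases in the table, the E-box in 6.02%, the TATA box in 12.4% and the GC box in 32.7%. Apoa2 held a TATAAA 212 to 207 bases before its start, and the Pon1 and Apoa1 sequences held none of the 4 motifs. Searches for AGGTCA and GTTAAT, found in 14.0% and 6.43% of windows, gave no match in these 4 sequences. A match is a description of the letters, and the motifs were chosen after the sequences had been seen. In all, 8 of the 10 genes had an entry in the promoter table.

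The libraries were shallow. Reads recovered from the table summed to between 631020 and 702013 in HSKO and to between 838637 and 933319 in WT, and BC071253, a row named only by a sequence record, took 46.2% to 57.8% of them in HSKO and 43.1% to 52.9% in WT. Levels are the deposited values, in which each library's reads were scaled by its own size factor. A single read was worth 1.33 to 1.46 in HSKO and 0.564 to 0.763 in WT, which limits Abca1, Pltp, Lipc and Scarb1 most. All 16 hepatocyte markers had reads, and 6 of 7 measured adipose, muscle and pancreas markers and all 4 measured neutrophil markers had 0 in every library. Kupffer cell and macrophage markers summed to 58.5, 52.3 and 87.8 in HSKO against 63.3, 109 and 64.3 in WT.

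The comparison of HSKO with WT asks how HDL genes differ when hepatocytes lack Abca1. Abca1, Pon1, Apom and Apoa2 were lower in HSKO livers, and Apoa1, the most abundant of the 10, had nearly equal means in both groups. Limma called 4 of the 10 genes lower and 0 higher at an adjusted p below 0.05. Over all 2750 rows tested, 11.6% were called lower and 28.5% higher. At an unadjusted p below 0.05, 0 of the tested HDL genes were higher as well, and DESeq2 and edgeR also called 0 higher, where they called 21.3% and 24.9% of all rows higher. The other 5 tested genes did not pass, and Pltp was below the minimum mean of 10 and was not tested. Abca1, Lipc and Scarb1 passed that minimum only through WT, since their HSKO means were under 10. All 9 tested genes had log2 fold changes below 0, where 47.7% of tested rows were, and in the fit without a filter all 10 were below 0, where 61.6% of the 13807 rows were. For 7 of the 10 genes all HSKO values lay below all WT values. Groups did not overlap in that direction for 20.1% of tested rows and for 12.6% of the 13807 rows above 0 in any library. Without a filter, the median log2 fold change was -0.73 over the 10 genes and -0.71 over the 9 other than Abca1, beside -0.22 over the 13807 rows. In liver tissue, fewer hepatocytes and less RNA per hepatocyte cannot be told apart.

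**Figure D1:**
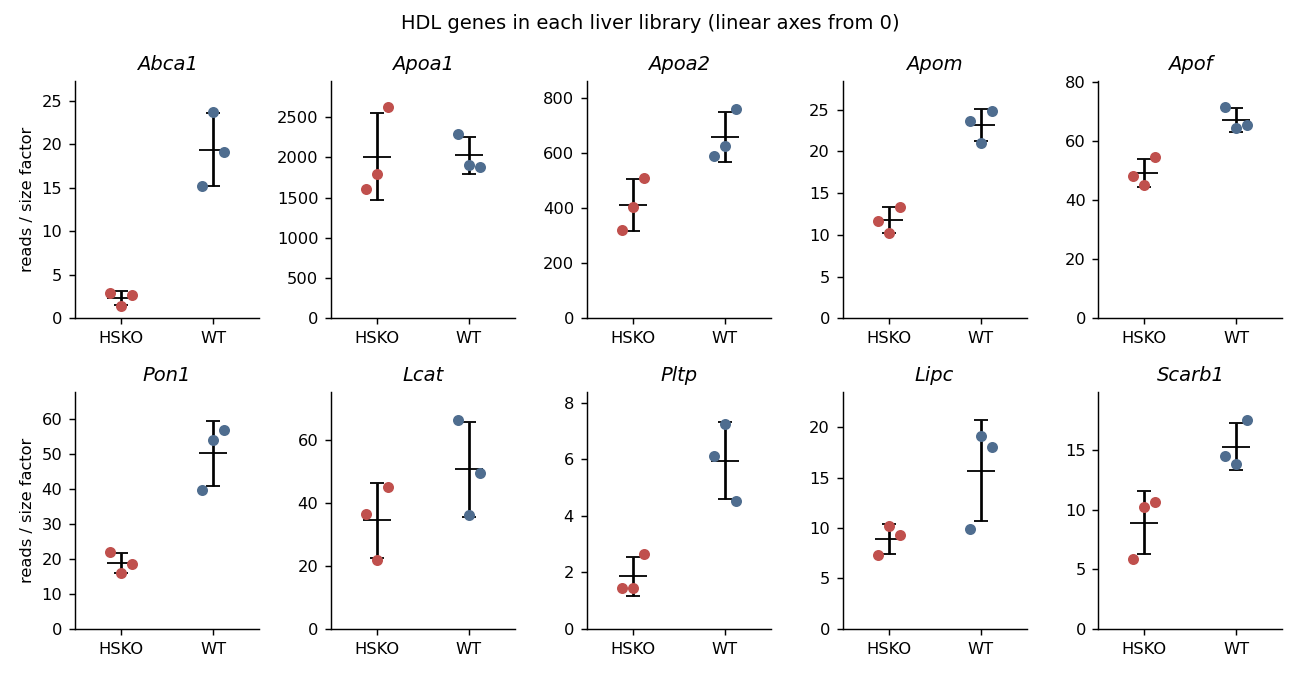
Level of each of the 10 HDL genes (reads divided by the size factor, linear axes from 0) in the 3 HSKO libraries and the 3 WT libraries; horizontal bars are means and error bars the SD. The groups are apart for Abca1, Apoa2, Apom, Apof, Pon1, Pltp and Scarb1 and overlap for Apoa1, Lcat and Lipc.

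Abca1, the targeted gene, had 2.92, 1.45 and 2.66 in HSKO livers, against 15.3, 23.7 and 19.2 in WT livers. Every HSKO library was far below every WT library. These levels rest on 5 reads in all HSKO libraries together and 90 in WT. Pooled over each group and adjusted for scaling, the HSKO reads stood at 0.120 of the WT reads (exact 95% interval 0.0382 to 0.292, counting error alone). The log2 fold change, taken as HSKO minus WT after log2(value + 1), was -2.62 (SE 0.50, limma adjusted p = 0.000862, lower in 3 of 3 HSKO libraries).

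Apoa1 encodes apolipoprotein A-I, the acceptor of the lipid that ABCA1 exports. It had 1606, 1794 and 2625 in HSKO, against 2296, 1901 and 1882 in WT. The HSKO libraries held both the lowest and the highest value, and their SD of 542 was wider than the SD of 233 in WT. The log2 fold change was -0.04, with a 95% interval of -0.56 to 0.48 (limma adjusted p = 0.908). Counting error was small here, with 4307 reads in HSKO and 9234 in WT.

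Apoa2, the second structural apolipoprotein, was lower in HSKO. Its level was 320, 404 and 509 in HSKO, against 588, 625 and 761 in WT. All HSKO libraries were below all WT libraries, and the mean was 62.5% of the WT mean. The log2 fold change was -0.69 (SE 0.24, limma adjusted p = 0.0265). Without HSKO replicate 1 or 2 or WT replicate 2 or 3, the adjusted p was 0.142, 0.0894, 0.0717 and 0.0559, and it was 0.0836 without the filter and 0.0693 without the variance trend, where 1.53% and 9.67% of all rows were called lower.

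The ratio of Apoa1 to Apoa2 within a library needs no scaling between libraries. It was 5.02, 4.44 and 5.15 in HSKO, against 3.90, 3.04 and 2.47 in WT. The HSKO ratios were all above the WT ratios, at 4.87 ± 0.380 in HSKO and 3.14 ± 0.719 in WT (SD, n = 3 each, two-sided exact permutation p = 0.1, which is the lowest a 3 against 3 design allows). Apoa1 made up 78.4% ± 1.2 of the summed level of the 10 genes in HSKO and 69.0% ± 4.20 in WT, and Apoa2 16.2% ± 1.13 in HSKO and 22.5% ± 3.73 in WT (SD, n = 3 each).

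Pon1, an esterase and lactonase carried on HDL, showed the largest fall among the 9 tested genes after Abca1. It had 21.9, 16 and 18.6 in HSKO, against 39.7, 54.0 and 57.0 in WT. The groups lay far apart, and the reads numbered 40 in HSKO and 235 in WT. The log2 fold change was -1.36 (SE 0.27, limma adjusted p = 0.00106), and leaving out any library kept it between -1.52 and -1.26. The neighbouring family members, Pon3 and Pon2, lie on chromosome 6 from 5220852 to 5256286 and from 5264147 to 5298455. Pon2 had means of 11.2 ± 3.06 in HSKO and 11.5 ± 2.09 in WT (SD, n = 3 each, limma adjusted p = 0.919). Pon3, below the filter, had 2.92, 1.45 and 3.99 in HSKO against 2.29, 4.61 and 3.95 in WT.

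Apom encodes the HDL carrier of sphingosine-1-phosphate. It had 11.7, 10.2 and 13.3 in HSKO, against 23.7, 21.1 and 24.8 in WT. Each group was tight and they did not overlap, with the HSKO mean at 50.6% of the WT mean. The log2 fold change was -0.93 (SE 0.30, limma adjusted p = 0.0190). Its call was lost without HSKO replicate 2 (adjusted p = 0.0501), without WT replicate 3 (0.0819) and without the filter (0.0814).

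Apof, whose human protein inhibits lipid transfer between lipoproteins, had 48.2, 45.1 and 54.5 in HSKO, against 71.7, 64.5 and 65.4 in WT. The groups did not overlap, but the difference did not pass the test (log2 fold change -0.44, 95% interval -0.95 to 0.06, limma adjusted p = 0.146). The mean in HSKO was 73.3% of that in WT. From 105 reads in HSKO and 308 in WT, the pooled ratio of HSKO to WT was 0.739. Its exact interval of 0.586 to 0.925 is for counting error only and leaves out the spread between libraries.

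The plasma remodelling genes had lower means in HSKO that did not pass the test. Lcat, the enzyme that esterifies HDL cholesterol, had 36.5, 21.8 and 45.2 in HSKO, against 66.4, 36.2 and 49.6 in WT. The groups overlapped, and both spread widely (log2 fold change -0.56, 95% interval -1.19 to 0.07, limma adjusted p = 0.143).

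Lipc, the hepatic lipase, had 7.31, 10.2 and 9.31 in HSKO, against 9.92, 19.1 and 18.0 in WT. WT replicate 1 fell within the HSKO range, while the other two WT libraries lay above it (log2 fold change -0.71, 95% interval -1.49 to 0.08, limma adjusted p = 0.136). These levels rest on 19 reads in HSKO and 74 in WT. With array weights the gene was called lower (limma adjusted p = 0.0331), as were 17.8% of all rows. It was also called lower under 4 of the 7 scalings compared below.

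Pltp, the phospholipid transfer protein, had 1.46, 1.45 and 2.66 in HSKO, against 6.11, 7.24 and 4.51 in WT. All HSKO values were below all WT values, from 4 reads in HSKO and 27 in WT. The pooled ratio was 0.321, with an exact 95% interval of 0.0816 to 0.921 for counting error only. In the fit without a filter the log2 fold change was -1.29 (SE 0.54), and it did not pass (limma adjusted p = 0.187).

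Scarb1, the receptor that takes up cholesteryl ester from HDL, had 5.85, 10.2 and 10.6 in HSKO, against 14.5, 13.8 and 17.5 in WT. The groups did not overlap, and the difference did not pass (log2 fold change -0.75, 95% interval -1.52 to 0.02, limma adjusted p = 0.111). Its reads numbered 19 in HSKO and 71 in WT.

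Per kilobase of transcript, the 10 genes spanned more than 3 orders of magnitude with a similar order of means in both groups. Levels were divided by the median length of the basic protein-coding transcripts in GENCODE M21. Apoa1 was highest at 1941 ± 524 per kilobase in HSKO and 1958 ± 226 in WT, and Apoa2 followed at 855 ± 197 in HSKO and 1368 ± 189 in WT (SD, n = 3 each). Abca1 was lowest at 0.229 ± 0.0763 in HSKO and 1.89 ± 0.411 in WT. In HSKO the order between them was Apof, Lcat, Pon1, Apom, Lipc, Scarb1 and Pltp, and the ranges of neighbours overlapped for Lcat and Pon1 and for Lipc and Scarb1. In WT it was Apof, Pon1, Lcat, Apom, Lipc, Scarb1 and Pltp, with overlaps between Apof and Pon1, Pon1 and Lcat, and Lipc and Scarb1. Pon1 was at 17.7 ± 2.79 per kilobase in HSKO and 47.1 ± 8.66 in WT, and Lcat at 25.7 ± 8.82 in HSKO and 37.8 ± 11.3 in WT. The means of these neighbours stood in the opposite order in the 2 groups, but their ranges overlapped in both, so no change of place was established.

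How many of these genes passed depended on how libraries were scaled, and Abca1 passed under each of the 7 scalings compared. Its log2 fold change lay between -3.21 with TMM in edgeR and -2.07 with scaling to the summed hepatocyte markers. Pon1 was lower under all but the hepatocyte marker scaling (log2 fold changes from -2.01 to -0.73, the last with an adjusted p of 0.0616). Apom and Apoa2 were also lower under 6 of 7, from -1.56 to -0.31 and from -1.37 to -0.04. Apof and Lcat were called lower under 5 of 7 and Lipc and Scarb1 under 4, none of them with the hepatocyte markers.

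**Figure D2:**
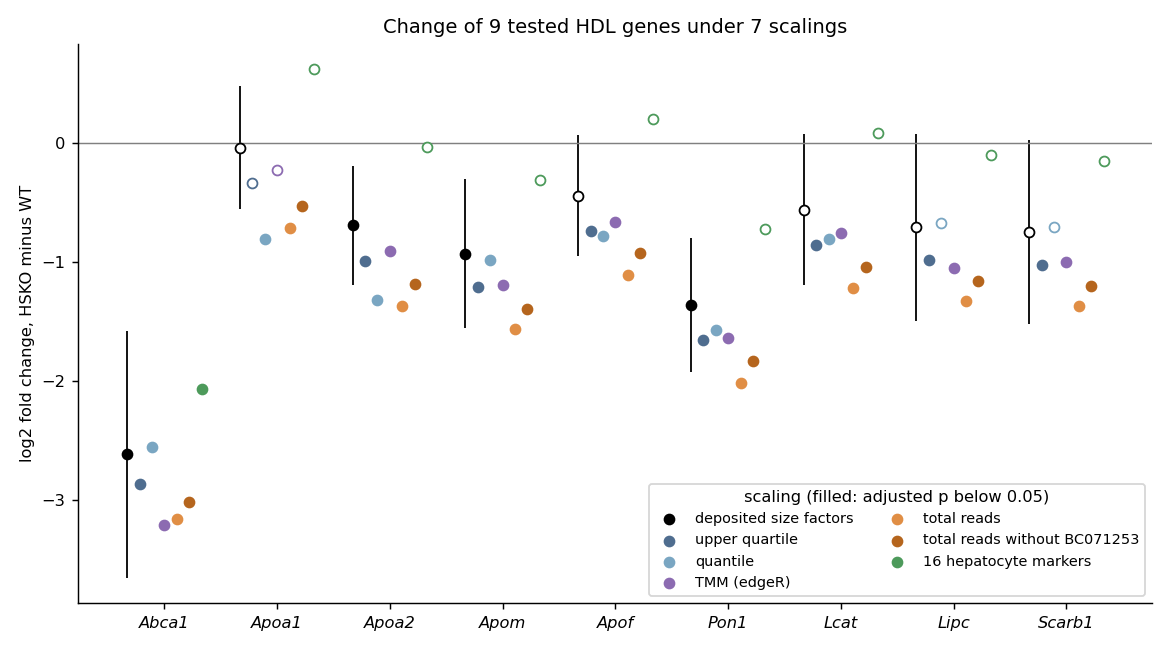
Log2 fold change (HSKO minus WT) of the 9 tested HDL genes under 7 ways of scaling the libraries; filled points passed an adjusted p below 0.05, open points did not, and vertical lines are 95% intervals for the deposited size factors. Abca1 is the gene whose 7 points are all filled, and the points of Apoa1, Apof and Lcat lie on both sides of 0.

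Upper quartile scaling called 8 of the 9 tested genes lower, where 25.6% of all rows were. TMM in edgeR also called 8, against 21.9% of all rows, and quantile normalization 7, against 18.3%. Scaling to total reads called all 9, against 38% of all rows, and so did total reads without BC071253, chosen with results known, against 33.2%. Scaling to the hepatocyte markers called Abca1 alone, where 0.618% of all rows were lower and 43.1% higher. This scaling left out Serpina1a, whose row also names Serpina1d, and used the rest of the 16 markers. Relative to the deposited scaling, the median log2 fold change of all rows moved by -0.28 with upper quartile scaling, -0.20 with TMM, -0.09 with quantile normalization, -0.64 with total reads, -0.47 with total reads without BC071253 and 0.62 with the hepatocyte markers. Without a filter 2 of the 10 were lower, against 1.53% of all rows. With a minimum mean of 50 it was 1 of 3 tested, where 17.2% of all rows were lower. With the replicate block the number stayed at 4, against 9.78% of all rows. Leaving out HSKO replicate 1, 2 or 3 gave 3, 2 and 4 genes, against 9.31%, 8.55% and 10.3% of all rows, and leaving out WT replicate 1, 2 or 3 gave 4, 3 and 2, against 11.4%, 5.78% and 5.71%. The direction for Apoa1 turned: it was called lower with quantile normalization (log2 fold change -0.81), total reads (-0.72) and total reads without BC071253 (-0.53), and was 0.62 with the hepatocyte markers (adjusted p = 0.0739). Apof and Lcat were 0.20 and 0.08 with the hepatocyte markers and below 0 in the other 6 scalings.

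The hepatocyte markers themselves were lower in HSKO. Their summed level was 8847, 9702 and 12332 in HSKO, against 14671, 16460 and 17354 in WT. No HSKO library reached the lowest WT library. Of the 16 marker rows, 8 were called lower and 0 higher, beside 11.6% and 28.5% of all tested rows. The median log2 fold change was -0.62, and 14 of the 16 were below 0. Tat and Ass1 were above it (0.74 and 0.02, limma adjusted p = 0.0658 and 0.966). Alb, the marker with the highest level, averaged 3932 ± 1205 in HSKO and 6426 ± 1746 in WT (SD). It was not called (limma adjusted p = 0.0525). Markers of stellate cells and fibroblasts summed to 14.6, 30.5 and 23.9 in HSKO against 44.3, 43.4 and 42.9 in WT. They rest on 10, 21 and 18 reads in HSKO and 58, 66 and 76 in WT. Those of endothelial cells summed to 35.1, 18.9 and 26.6 against 38.9, 38.8 and 45.7, from 24, 13 and 20 reads in HSKO and 51, 59 and 81 in WT. Dcn, the 1 marker of these cells that was tested, made up 19.5 of the mean WT stellate and fibroblast sum of 43.5. The part of these marker differences in the changes of the HDL genes was not tested beyond the ratios that follow.

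Relative to the summed hepatocyte markers of the same library, Abca1, Pon1 and Pltp were lower in every HSKO library than in any WT library, and Apoa1 was higher. The mean log2 ratio differed by -2.43 for Abca1, -0.75 for Pon1 and -1.05 for Pltp, and by 0.62 for Apoa1. Each gave a two-sided exact permutation p of 0.1, again the lowest possible, and 0.25 after Benjamini-Hochberg adjustment over the 10 genes. Of all tested rows, 2.07% were lower without overlap by this measure and 49.2% higher. For the other 6 genes the groups overlapped, with differences of -0.03 for Apoa2, -0.33 for Apom, 0.21 for Apof, 0.09 for Lcat, -0.11 for Lipc and -0.16 for Scarb1. The mean log2 ratio of Apoa2 to the markers was -4.66 in HSKO and -4.62 in WT.

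**Figure D3:**
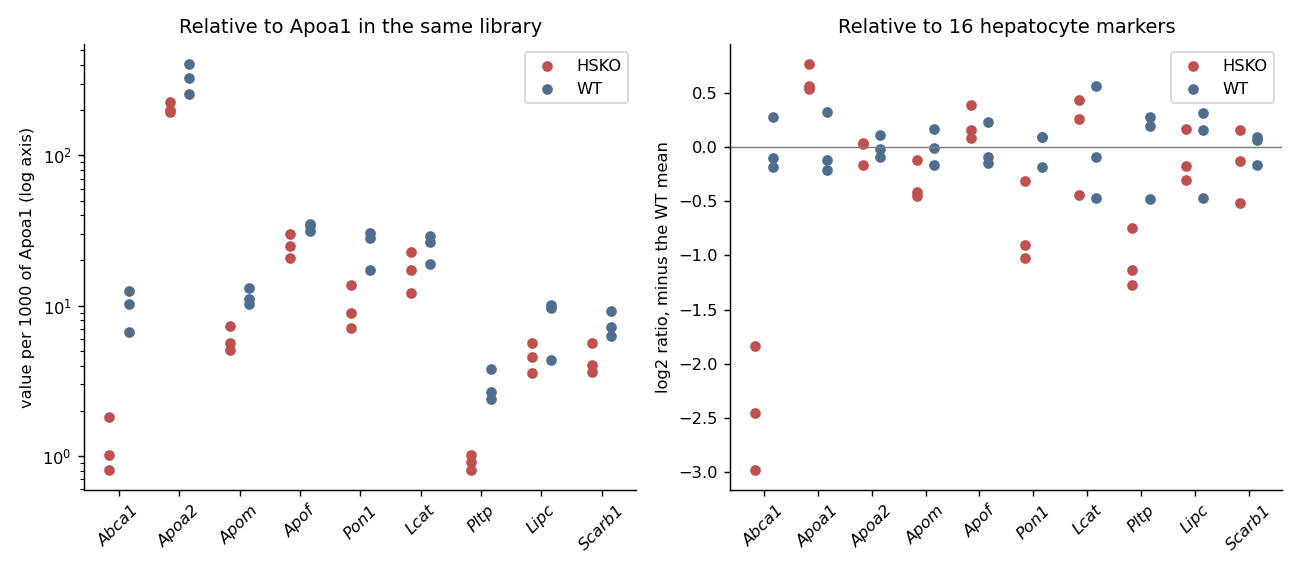
Left, level of 9 HDL genes per 1000 of Apoa1 in the same library (log axis); right, log2 ratio of each of the 10 genes to the summed 16 hepatocyte markers of the same library, with the WT mean set to 0. Each point is 1 library, HSKO left of WT; on the right, Abca1, Pon1 and Pltp lie below WT and Apoa1 above it.

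Set against Apoa1 in the same library, 7 of the other 9 genes were lower in every HSKO library than in any WT library. Groups did not overlap in that direction for 12.6% of tested rows. Per 1000 of Apoa1, Pon1 stood at 13.6, 8.91 and 7.09 in HSKO, against 17.3, 28.4 and 30.3 in WT. Apom stood at 7.28, 5.67 and 5.07 in HSKO, against 10.3, 11.1 and 13.2 in WT. In both, the HSKO library nearest to WT was replicate 1, and the WT library nearest to HSKO was replicate 1. Lcat and Lipc overlapped between the groups. The 7 ratios each had an exact permutation p of 0.1, the smallest possible, and 0.129 after adjustment over the 9. This comparison was chosen after the values were seen. Apoa1 had the log2 fold change nearest to 0 of the 9 tested genes (-0.04). The same 7 genes had groups that did not overlap before division by Apoa1, and the ratios share that denominator. Their p-values are therefore no separate evidence of a fall.

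Other genes of HDL metabolism were followed in 5 lists, chosen with earlier results of these data known. Among further apolipoproteins and proteins carried on HDL, 13 of 15 were tested, and Apoa5 and Apoc1 were called lower, 0 higher and 11 neither (median -0.43, beside 0.07 over all 2750 rows). The 2 of 13 called lower are to be read beside the 11.6% of all rows. DESeq2 called 4 lower, where 11.8% of all rows were, and edgeR 7, where 21.9% were, and both called 0 higher, as did limma at an unadjusted p below 0.05. In limma, upper quartile scaling, quantile normalization, total reads and total reads without BC071253 called 6 or 7 lower and 0 higher. Those scalings called 25.6%, 18.3%, 38% and 33.2% of all rows lower. Scaling to hepatocyte markers called 0 lower and 2 higher, where 0.618% of all rows were lower and 43.1% higher. None was called lower without the filter, without the variance trend, or without HSKO replicate 1, HSKO replicate 2 or WT replicate 2. In those fits 1.53%, 9.67%, 9.31%, 8.55% and 5.78% of all rows were lower. With array weights 1 was called higher, and likewise without WT replicate 1. All rows called in either direction then numbered 1345 and 1135, of which 490 and 313 were lower. Apoa5, which raises the clearance of triglyceride-rich lipoproteins, averaged 88.4 ± 19.0 in HSKO and 144 ± 19.8 in WT (SD, n = 3 each, log2 fold change -0.71, limma adjusted p = 0.0281). Apoc1, an activator of LCAT, averaged 280 ± 50.9 in HSKO and 450 ± 43.1 in WT (log2 fold change -0.69, limma adjusted p = 0.0225). Neither passed with scaling to hepatocyte markers (-0.06 and -0.04). Apoa5 also lost its call without HSKO replicate 1 (limma adjusted p = 0.0659), HSKO replicate 2 (0.150), WT replicate 1 (0.0685) or WT replicate 2 (0.0860), and Apoc1 without HSKO replicate 1 (0.106), HSKO replicate 2 (0.0824) or WT replicate 2 (0.0505). Apoc3, at 37.8 ± 8.96 in HSKO and 60.0 ± 13.2 in WT, missed the threshold (adjusted p = 0.0580) and passed under 5 of the 7 scalings.

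**Figure D4:**
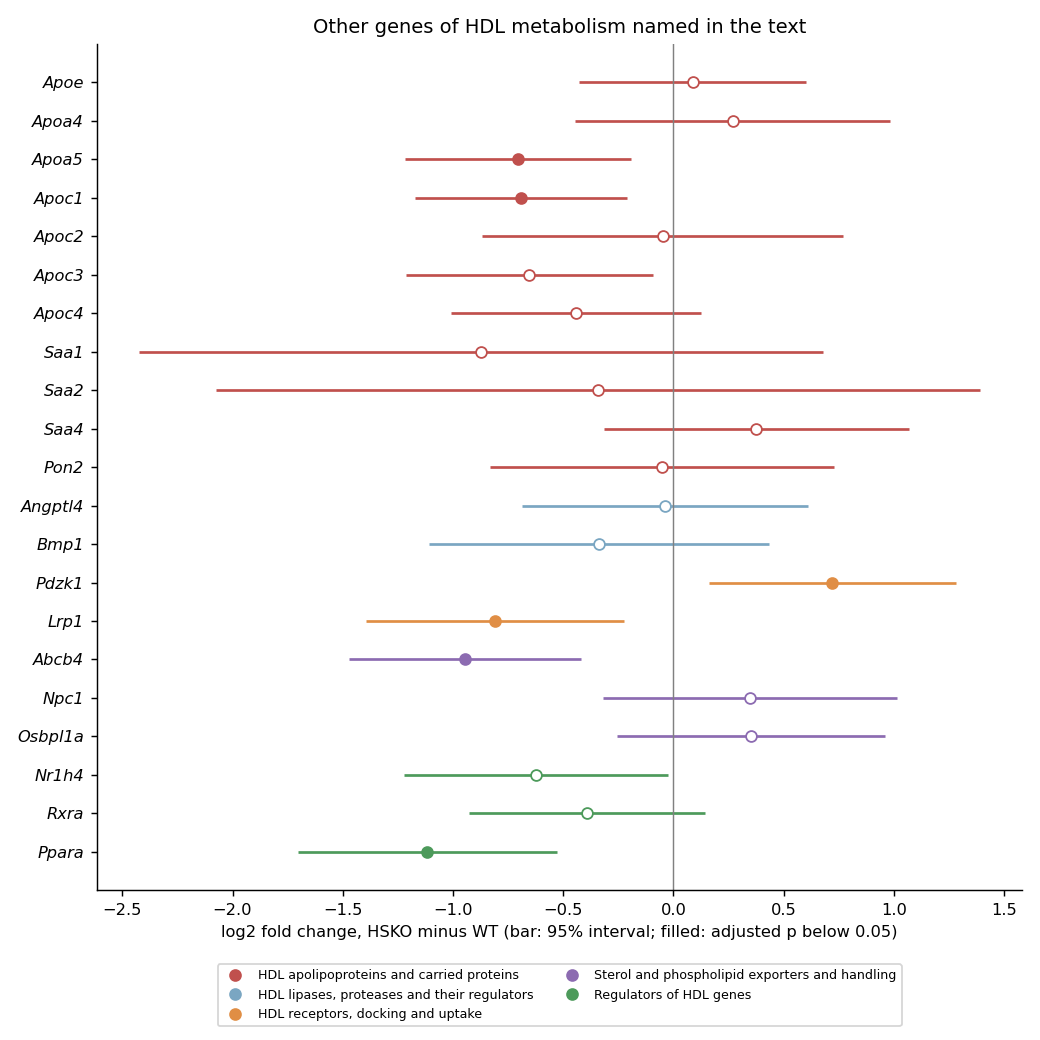
Log2 fold change (HSKO minus WT) of tested genes named in the text from the 5 lists of other HDL metabolism genes; bars are 95% intervals and filled points passed an adjusted p below 0.05. Ppara has the lowest filled point, and Pdzk1 is the filled point above 0.

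Among receptors and their partners, Lrp1 was called lower and Pdzk1 higher. Lrp1, a receptor for lipoprotein remnants, averaged 48.6 ± 17.0 in HSKO and 82.1 ± 5.86 in WT (SD, n = 3 each, limma adjusted p = 0.0273). Pdzk1, the scaffold that holds SR-BI at the hepatocyte surface, was at 84.8, 85.8 and 50.5 in HSKO, against 49.6, 42.8 and 37.8 in WT. HSKO replicate 3 was close to the highest WT library, and the groups did not overlap (log2 fold change 0.72, SE 0.27, limma adjusted p = 0.0391). The call of Pdzk1 held under 2 of the 7 scalings, in neither DESeq2 nor edgeR, and only without HSKO replicate 3 or WT replicate 1 among the 6 fits that left out a library (limma adjusted p = 0.103 to 0.150 in the other 4), and its log2 fold change ranged from 0.05 with total reads to 1.36 with hepatocyte markers. Lrp1 passed under 6 of 7, all but the hepatocyte markers (limma adjusted p = 0.763), and lost its call without HSKO replicate 3 (0.147) or WT replicate 2 (0.0905), without the filter (0.0719) and without the variance trend (0.0590).

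Exporters other than Abca1 had 1 call, where 11.6% of all tested rows were called lower and 28.5% higher. Of 12 genes for sterol and phospholipid export and handling, 4 were tested, and Abcb4, the canalicular phosphatidylcholine floppase, was lower at 30.7, 24.7 and 26.6 in HSKO, against 50.4, 55.3 and 54.7 in WT. Its groups were tight and apart (log2 fold change -0.95, SE 0.25, limma adjusted p = 0.00617), and it passed in all 6 fits without a library and in 6 of 7 scalings, with -0.31 under the hepatocyte markers. Osbpl1a and Npc1, which move sterol inside the cell, had log2 fold changes of 0.35 and 0.35 and did not pass (adjusted p = 0.342 and 0.393). From the list of lipases, proteases and their regulators, Bmp1, which cleaves the precursor of apolipoprotein A-I, and Angptl4, a lipase inhibitor, had limma adjusted p-values of 0.474 and 0.926.

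Among 16 regulators of HDL genes, 15 had a row, 6 were tested and Ppara alone was called. Of all 2750 rows tested, 11.6% were called lower and 28.5% higher. Ppara, the fatty acid receptor, was at 17.5, 14.5 and 26.6 in HSKO, against 39.7, 42.1 and 45.1 in WT (log2 fold change -1.12, SE 0.28, limma adjusted p = 0.00429), and the hepatocyte marker scaling gave -0.48, which did not pass (limma adjusted p = 0.204). The bile acid receptor Nr1h4 averaged 21.1 ± 2.55 in HSKO and 33.9 ± 10.3 in WT, and Rxra, the partner of many nuclear receptors, 41.5 ± 4.48 in HSKO and 55.2 ± 10.4 in WT (SD, n = 3 each, limma adjusted p = 0.0889 and 0.223). Nr1h4 was called lower under 5 of the 7 scalings and Rxra under 4, with log2 fold changes from -1.27 to 0.0077 and from -1.06 to 0.25, the highest with the hepatocyte markers. The liver X receptor genes Nr1h3 and Nr1h2, whose products bind the element shown for Abca1, were below the filter. Nr1h3 had 7.31, 8.72 and 5.32 in HSKO against 17.6, 9.87 and 10.7 in WT. These levels rest on 5, 6 and 4 reads in HSKO and 23, 15 and 19 in WT. Nr1h2 had 2.92, 1.45 and 0 in HSKO against 3.05, 1.97 and 4.51 in WT. In the fit without a filter neither gene passed, with log2 fold changes of -0.74 for Nr1h3 (limma adjusted p = 0.316) and -0.93 for Nr1h2.

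Some apolipoprotein genes lie side by side, and their values are given here because of their position. On chromosome 9, Apoc3 (46232933 to 46235636), Apoa4 (46240696 to 46243459) and Apoa5 (46268633 to 46271919) follow Apoa1. Their log2 fold changes were -0.65, 0.27 and -0.71 beside -0.04 for Apoa1, with Apoa5 the 1 gene called. Apoa4 had 57.0, 32.0 and 22.6 in HSKO against 45.8, 25.7 and 19.7 in WT (limma adjusted p = 0.545). On chromosome 7, Apoc2, Apoc4, Apoc1 and Apoe lie between 19671579 and 19699188, and Apoc1 was called while Apoe, Apoc4 and Apoc2 were not (limma adjusted p = 0.798, 0.198 and 0.929). Apoe had 5528, 5904 and 6721 in HSKO against 6596, 5297 and 5245 in WT, so that, like Apoa1, its groups overlapped. The difference between neighbours was not tested, and for Apoe it depended on scaling, which gave -0.59 with total reads and 0.74 with hepatocyte markers, both called.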

How the data were processed

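RNA of 6 mouse liver samples was measured by stranded, paired-end mRNA sequencing on an Illumina HiSeq, per the labels' protocols. Named without a role in the submitters' processing notes are mm10 and the tools DESeq 1.16.0, RSEM 1.2.9, Bowtie and FastQC 0.11.3. The authors deposited a signal per gene, each library's reads scaled by its own size factor. Dividing by the value of 1 read gave whole reads for 100% of values (tolerance 0.001).

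Differences were tested on log2(value + 1) with limma 3.58.1 (R 4.3.3) and a variance trend, over 2750 rows with a mean of at least 10, HSKO minus WT, two-sided, with Benjamini-Hochberg adjustment over those rows at 0.05. Fold changes on this scale understate low genes. DESeq2 1.42.0 and edgeR 4.0.16 (quasi-likelihood, TMM) on the recovered reads called 909 and 1285 rows, against 1103 by limma. The genes, lists and tests were chosen with earlier results of these data known. In each list, the up to 3 tested genes with the smallest p are named, and other genes were chosen later. Counting intervals are exact at 95%, for counting error only, since amplified copies count as reads. Replicates of a group differed by more than counting noise (chi-square per degree of freedom 2.38 to 15.8), so each library counted once. The fitting was tested on simulated data. Some genes of the lists are not reported here, and counts over those lists are left out.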

Additional observations from a re-analysis of the deposited data

How the results depend on the processing

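Abca1 was called lower in all alternatives that tested it. Of the 10 HDL genes, 4 were lower with the deposited scaling, where 11.6% of all rows were. Upper quartile scaling gave 8 (25.6% of all rows), quantile normalization 7 (18.3%) and edgeR 8 (21.9%). Total reads gave 9 (38%), total reads without BC071253 also 9 (33.2%) and hepatocyte markers 1 (0.618%). No filter gave 2 (1.53%), and a minimum mean of 50 gave 1 (17.2%), with 3 of the 10 tested. Without 1 library the number was 2 to 4, against 5.71% to 11.4% of all rows. It was 2 without HSKO replicate 2 or WT replicate 3, where Abca1 and Pon1 were the genes called. The cause of these shifts was not tested beyond the scaling itself. The count of all rows called was 1103, and 509 with a minimum mean of 50, where fewer rows were tested; it was 738 to 1135 without 1 library. With no filter, Pltp passed with total reads (log2 fold change -1.78) and total reads without BC071253 (-1.65), and ranged from -1.48 to -1.16 without 1 library.

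With hepatocyte markers, Apoa1, Apof and Lcat turned to 0.62, 0.20 and 0.079. Without 1 library Apoa1 ranged from -0.25 to 0.11. Relative to hepatocyte markers, leaving out 1 library gave -0.081 to 0.032 for Apoa2, -0.15 to 0.37 for Lcat, -0.34 to 0.050 for Lipc and -0.32 to 0.014 for Scarb1. Samples with the same number did not deviate together (r -0.03 to -0.02, 0 of 6 correlating best with their own number). The replicate block called 4 of the HDL genes lower, against 9.78% of all rows, and 1020 rows in all. Depth limits Abca1 in HSKO, Pltp, Lipc and Scarb1, with 4 to 19 reads per gene over the HSKO libraries.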

Other observations

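The acute phase apolipoproteins of HDL, Saa1 and Saa2, were high in WT replicate 1. Saa1 had 32.2, 14.5 and 9.31 in HSKO, against 232, 15.8 and 7.33 in WT, and Saa2 had 14.6, 21.8 and 9.31 in HSKO, against 190, 9.21 and 2.82 in WT. Saa4, the form made constitutively, had 212, 192 and 161 in HSKO, against 295, 84.2 and 120 in WT. None of these passed the test (limma adjusted p = 0.357, 0.762 and 0.373). Without WT replicate 1, the HDL genes called lower were the same 4, Abca1, Apoa2, Apom and Pon1, against 11.4% of all rows.

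Abca8a, a relative of Abca1, was below the filter. It had 2.92, 5.82 and 1.33 in HSKO, against 10.7, 12.5 and 11.8 in WT, from 7 reads in HSKO and 54 in WT. In the fit without a filter it was called lower (log2 fold change -1.67, limma adjusted p = 0.0247). Cd36, which takes up fatty acids and also binds HDL, had 2.92, 1.45 and 1.33 in HSKO, against 3.05, 7.90 and 9.59 in WT, and did not pass in that fit (adjusted p = 0.170). These genes were chosen after their values were seen.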
